A study of Mus musculus with 18 samples.

Results

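The 10 genes described here are F5, Clic6, Srgap1, Padi6, Kcnip2, Gad2, B4galnt4, Rrp8, Tmed9 and Meak7, out of 17075 genes tested in mouse testis. They were selected on the measured difference between arrays labelled Plin1 knockout and arrays labelled wild type, so these differences are given below as a description with no test. The series held 18 one-colour arrays of total testis RNA in 6 groups of 3: male mice labelled wild type and male mice labelled plin1 knockout, each at 21, 40 and 60 days of age, phases that the labels call meiosis, puberty and mature. The sources used here do not give the strain, the design of the knockout allele or any promoter or Cre line behind it. The design text speaks of independent experiments, but no label ties an array to an animal, so the p-values measure only the spread between arrays, which may be technical.

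The probe for Plin1, the gene of perilipin at the surface of lipid droplets, was brighter on the knockout-labelled arrays at every age. Its signal was higher by 1.71, 2.33 and 2.75 on the log2 scale at days 21, 40 and 60. This goes against a loss of the transcript, although a probe outside the deleted part would not show the loss. Directions below therefore refer to the labels on the arrays.

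In the first wave of spermatogenesis, germ cells pass from spermatogonia through meiosis to round and then elongating spermatids, and each new cell type adds its own transcripts to the RNA of the whole testis. Many genes known from brain, blood or oocyte are also transcribed in spermatids. In whole-testis RNA, fewer cells of a type and less RNA per cell cannot be told apart. Signals are given as log2 intensity after subtraction of that array's 75th percentile, called relative log2 signal, so 0 is as bright as that percentile. A brighter probe is not a more abundant transcript, and levels are compared only within a probe.

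All 10 genes had a probe well above background on the 3 arrays of at least 1 group, and 9 of them were well above background on all 18 arrays. The exception was Gad2, whose brighter probe passed on 1 of 3 wild-type-labelled arrays at day 21. Clic6, Srgap1 and Gad2 each had a second, dimmer probe. The share of non-control spots that passed the scanner's background test ran from 79.5% to 90.6% over the arrays, and the number of arrays limits the precision. At day 21, wild-type-labelled replicate 3 and knockout-labelled replicate 2 stood apart from the other arrays of their groups, and results that rest on them are also given without them. The mean relative log2 signal over the pachytene spermatocyte list was between 3.52 and 4.56 on every array, and that over the epididymis list between -5.39 and -3.56. It was between -2.57 and -1.80 over the spermatogonia list, -1.36 and 0.36 over the Leydig cell list, and -1.64 and -0.73 over the macrophage list. These lists rest on different probes, so their levels do not rank the cell types.

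The genes fell into a group of 6 that rose steeply between day 21 and day 40 (F5, Srgap1, Padi6, Kcnip2, Gad2 and B4galnt4) and a group of 4 that fell over the same interval (Clic6, Rrp8, Tmed9 and Meak7). This change was averaged over both labels, which sets it apart from the label difference that chose the genes if all arrays spread equally. Some day 21 arrays stood apart, and both comparisons use the same estimate of the spread of a probe, so the separation is not complete. The change was tested with limma over all probes with Benjamini-Hochberg adjustment. All 10 passed at an adjusted p under 0.05, 6 higher and 4 lower. Over all genes tested, 19.6% were higher and 52.6% lower by the same rule, and the median gene changed by -0.31, so passing the test downward was common. On wild-type-labelled arrays the changes were -0.31 (Clic6), -0.67 (Rrp8), -0.16 (Tmed9) and -0.47 (Meak7), beside -0.34 for the median gene. On knockout-labelled arrays they were -0.58, -0.83, -0.39 and -0.96 in the same order, beside -0.24. These values by label are given with no test, since they hold the label differences that chose the genes. Under normexp background correction the adjusted p of the 4 falls was between 0.0938 and 0.286, so these calls ended, while the 6 rises stayed past the threshold.

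Among the 6 rising genes, F5 encodes coagulation factor V, the plasma cofactor of prothrombin activation. At day 21 its relative log2 signal was -5.57, -5.29 and -5.89 on the wild-type-labelled arrays and -3.93, -3.66 and -4.00 on the knockout-labelled arrays. At day 40 it was -0.80, -1.13 and -0.84 against -1.01, -0.68 and -1.13. The labels were therefore apart on every array at day 21 and intermixed at day 40. Day 60 gave -0.87, -0.63 and -0.63 for the wild type label and -0.30, 0.19 and -0.08 for the knockout label, again without overlap. F5 rose by 3.79 ± 0.12 (SE, n = 6 arrays per age) from day 21 to day 40, a 13.9-fold change (limma, adjusted p = 4.68e-11).

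Srgap1 encodes a GTPase-activating protein that acts below Robo receptors. At day 21 its brighter probe read -5.08, -5.43 and -5.92 on wild-type-labelled and -4.08, -3.93 and -3.94 on knockout-labelled arrays. The corresponding values were -0.51, -0.89 and -0.68 against -0.77, -0.42 and -0.66 at day 40. The pattern was that of F5, with a gap at day 21 and overlap at day 40. Day 60 readings were -0.39, -0.36 and -0.31 against -0.10, 0.34 and 0.18, with all knockout-labelled arrays above. The rise from day 21 to day 40 was 4.08 ± 0.13 (SE), or 16.9-fold (limma, adjusted p = 3.76e-11).

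Padi6 belongs to the peptidylarginine deiminases and is best known as a component of the cytoplasmic lattices of the oocyte. At day 21 it read -5.22, -4.87 and -5.39 on wild-type-labelled and -3.44, -3.94 and -3.40 on knockout-labelled arrays. At day 40 the readings were -0.12, -0.36 and 0.01 against -0.46, 0.09 and -0.26, and the groups overlapped. At day 60, wild-type-labelled arrays gave -0.10, 0.01 and 0.08 and knockout-labelled arrays gave 0.35, 0.86 and 0.41. The groups were apart at days 21 and 60, in the same direction. Padi6 rose by 4.19 ± 0.14 (SE) from day 21 to day 40, an 18.3-fold change (limma, adjusted p = 4.68e-11).

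Kcnip2 encodes a calcium-binding accessory subunit of Kv4 potassium channels that is well known in heart muscle. Its day 21 signal was -5.48, -4.76 and -5.84 on wild-type-labelled and -3.56, -2.65 and -3.38 on knockout-labelled arrays. By day 40 the signal was 0.42, -0.04 and 0.26 against 0.36, 0.76 and 0.24, and by day 60 it was 0.75, 0.80 and 0.81 against 0.80, 1.16 and 1.16. It was the only member of the rising group whose labels overlapped at day 60. It rose by 4.61 ± 0.19 (SE) from day 21 to day 40, or 24.5-fold (limma, adjusted p = 2.6e-10).

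Gad2 encodes the smaller isoform of glutamate decarboxylase, which makes the transmitter GABA. On its brighter probe the day 21 values were -8.19, -7.59 and -8.05 on wild-type-labelled arrays, of which only replicate 2 was well above background, and -6.03, -5.82 and -5.50 on knockout-labelled arrays. At day 40 they were -2.20, -2.27 and -2.26 against -2.64, -1.95 and -2.74. The wild-type-labelled arrays lay close together inside the range of the knockout-labelled ones. Day 60 values were -2.12, -2.01 and -2.08 against -1.91, -1.05 and -1.85. Gad2 rose by 4.52 ± 0.17 (SE) from day 21 to day 40 (limma, adjusted p = 1.48e-10). The size of that rise rests in part on arrays at background and was 2.29 under normexp background correction and 5.11 under quantile normalization.

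B4galnt4 encodes a glycosyltransferase that adds N-acetylgalactosamine to form LacdiNAc units on glycoproteins. At day 21 it gave -6.09, -5.46 and -5.90 on wild-type-labelled and -4.00, -3.66 and -4.13 on knockout-labelled arrays. Day 40 gave values of -1.25, -1.50 and -1.21 against -1.82, -1.35 and -1.69, which overlap. At day 60 they were -1.63, -1.34 and -1.17 against -1.10, -0.23 and -0.66, which do not, although the nearest arrays were close. The rise from day 21 to day 40 was 3.40 ± 0.16 (SE), or 10.6-fold (limma, adjusted p = 8.69e-10).

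The sizes and the order of the 6 rises depended on the processing. Under normexp background correction they were 2.70 (F5), 3.17 (Srgap1), 3.22 (Padi6), 3.64 (Kcnip2), 2.29 (Gad2) and 2.47 (B4galnt4). Gad2 was then the lowest of the 6, whereas B4galnt4 was the lowest in the scaling used here. With the mean of the probes of a gene, Srgap1 rose by 1.93.

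**Figure D1:**
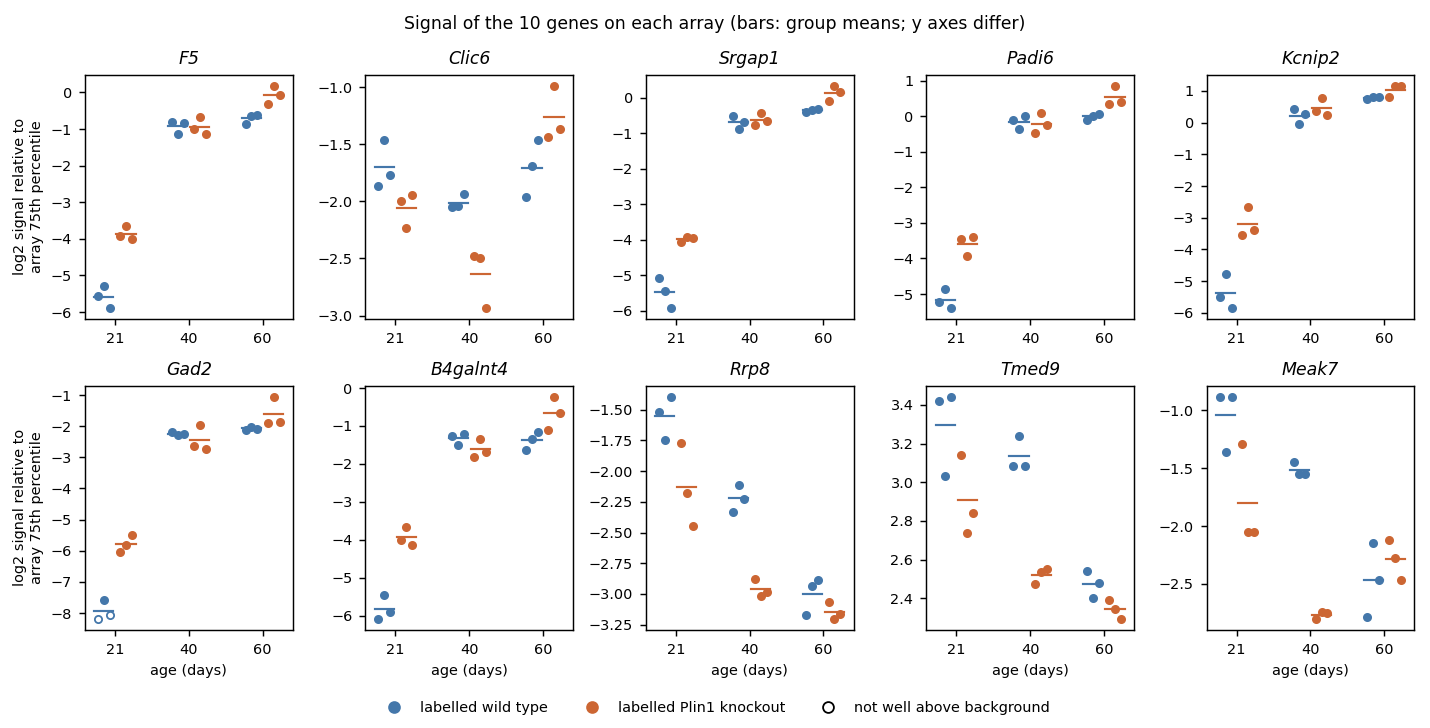
Relative log2 signal (y axis, a separate scale in each panel) of the 10 genes against age in days, with 1 point per array, a bar at each group mean, and open points for arrays not well above background. F5, Srgap1, Padi6, Kcnip2, Gad2 and B4galnt4 climb by 3.40 to 4.61 between days 21 and 40, and at day 21 all 3 knockout-labelled arrays lie above all 3 wild-type-labelled arrays.

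The promoters of Padi6, Kcnip2 and Gad2 are shown as examples of genes that rose together, in which motifs of spermatid transcription can be looked for. They had the highest rises in the scaling used here, an order that did not hold for Gad2 under normexp. RefSeq promoter entries were found for 8 of the 10 genes. Each sequence is the 250 bases before the annotated start on build GRCm38.p6, 5′ to 3′ on the strand of the gene, with matches in capitals. The start used in testis was not measured. Padi6 lies at chr4:140742644-140742893 and Kcnip2 at chr19:45816064-45816313, both on the minus strand, and Gad2 at chr2:22622077-22622326 on the plus strand.
Padi6: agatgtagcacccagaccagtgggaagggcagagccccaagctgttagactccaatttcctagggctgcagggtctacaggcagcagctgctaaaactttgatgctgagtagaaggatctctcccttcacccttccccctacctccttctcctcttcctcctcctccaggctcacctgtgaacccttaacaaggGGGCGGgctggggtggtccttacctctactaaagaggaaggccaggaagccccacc
Kcnip2: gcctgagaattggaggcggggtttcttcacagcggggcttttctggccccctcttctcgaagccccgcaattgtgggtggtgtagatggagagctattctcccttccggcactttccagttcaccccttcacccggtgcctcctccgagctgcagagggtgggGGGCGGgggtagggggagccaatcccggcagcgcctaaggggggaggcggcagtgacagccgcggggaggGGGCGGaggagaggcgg
Gad2: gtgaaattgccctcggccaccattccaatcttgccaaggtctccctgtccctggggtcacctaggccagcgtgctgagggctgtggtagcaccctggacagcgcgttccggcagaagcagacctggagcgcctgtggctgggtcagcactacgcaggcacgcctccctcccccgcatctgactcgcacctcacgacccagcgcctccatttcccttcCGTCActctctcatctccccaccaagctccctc

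The motifs searched, on both strands, were the CRE half-site TGACG, the full CRE with the letters TGACGTCA, which contains it, the RFX half-site with the letters GTTGCC, the GC box with the letters GGGCGG and the TATA box with the letters TATAAA. In Gad2 the capitals mark the half-site as read on the other strand. CRE and RFX sites are known from spermatid promoters, and the GC box is the site of Sp1-type factors. In these windows Padi6 had 1 GC box, Kcnip2 had 2 and Gad2 had 1 CRE half-site. F5 had 1 GC box, Srgap1 had 3, and B4galnt4 had no match to any of the 5 motifs. None of the 6 promoters held a full CRE, an RFX half-site or a TATA box in these letters. Over all 32851 promoters of that length, 32.7% held a GC box, 17.8% a CRE half-site, 10.4% an RFX half-site, 12.4% a TATA box and 1.55% a full CRE.

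At day 21 the 6 rising genes were higher on the knockout-labelled arrays, all without overlap. The differences, given with the SE of the fit, were 2.17 ± 0.27 for Kcnip2, 2.16 ± 0.24 for Gad2 and 1.89 ± 0.22 for B4galnt4. They were 1.72 ± 0.17 for F5, 1.57 ± 0.19 for Padi6 and 1.50 ± 0.18 for Srgap1. The Gad2 value is set against wild-type-labelled arrays of which 1 of 3 was well above background. In linear terms the other 5 span 2.83-fold to 4.49-fold. Under quantile normalization the differences of all 6 were lower, between 1.13 for Srgap1 and 2.11 for Kcnip2, with 1.22 for Gad2. With the mean of its probes Srgap1 differed by 1.07. Over all genes, 6.69% had all knockout-labelled arrays above at day 21 and 10.5% had them all below; nothing is read from the count of these genes, since the contrast chose them.

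Slide and label were partly mixed at each age. At day 21, the slide with all 3 wild-type-labelled arrays held knockout-labelled replicate 1, and against it the 6 genes differed by 1.65 (F5), 1.40 (Srgap1), 1.72 (Padi6), 1.81 (Kcnip2), 1.91 (Gad2) and 1.82 (B4galnt4). The within-slide values were thus close to those over all arrays. Without both day 21 arrays that stood apart, the 6 differences lay between 1.25 for Srgap1 and 2.13 for Gad2. All 30 label differences of the 10 genes at the 3 ages had the same sign within the shared slide as over all arrays, which include the arrays of that slide.

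**Figure D2:**
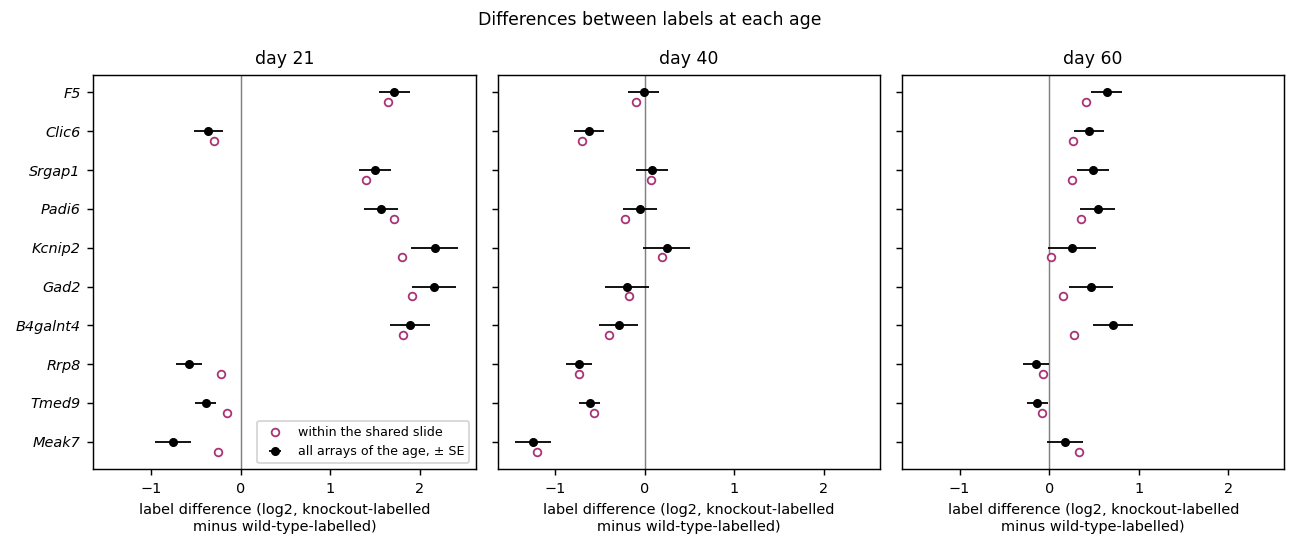
Difference between labels (x axis, log2, knockout-labelled minus wild-type-labelled) for the 10 genes at days 21, 40 and 60. Filled points with bars are the difference over all arrays of the age with the SE of the fit, and open points are the difference within the slide that held both labels; at day 21 F5 stands at 1.72 and 1.65.

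At day 40 the labels of the 6 rising genes overlapped. The differences ran from -0.29 for B4galnt4 to 0.24 for Kcnip2, with SEs of 0.17 to 0.27, and those of F5, Srgap1, Padi6 and Gad2 changed sign under at least 1 alternative setting. At day 60, F5 (0.64), B4galnt4 (0.72), Padi6 (0.54), Srgap1 (0.49) and Gad2 (0.47) were higher on all 3 knockout-labelled arrays, and Kcnip2 differed by 0.25 with overlap. The day 60 differences were smaller within the slide that held both labels, which has 1 knockout-labelled array: 0.41 for F5, 0.28 for B4galnt4, 0.35 for Padi6, 0.25 for Srgap1, 0.16 for Gad2 and 0.02 for Kcnip2. Over all genes at day 60, 10.6% had all knockout-labelled arrays above and 10.6% had them all below. The spermatid lists had median label differences of 0.01 (round) and -0.02 (elongating) at that age. Knockout-labelled replicates 2 and 3 of day 60 were almost level for Kcnip2. Knockout-labelled replicate 2 had the highest day 60 value of F5, Srgap1, Padi6, Kcnip2, Gad2, B4galnt4 and Clic6. That array also had the highest mean of the adipocyte list, which includes Plin1, at 0.76, beside -2.24 and -3.62 on the other knockout-labelled and -2.82, -3.89 and -4.11 on the wild-type-labelled arrays. The part of adipocyte transcripts was not tested; without that array the 6 differences were between 0.19 for Gad2 and 0.52 for F5. Whether the label difference changed with age was not tested for these genes, because the label differences chose them.

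Other genes with as steep an age change shared the day 21 pattern. Besides the 6, 258 genes had a change of at least 3.40 from day 21 to day 40, the smallest rise among the 6. Their median label difference at day 21 was 1.90, with quartiles of 1.45 and 2.41, and all 258 were above 0. In 218 of them, or 84.5%, all knockout-labelled arrays lay above. The differences of 1.50 to 2.17 in the 6 genes lie within these quartiles, and 185 of the 258 differed by as much as Srgap1. At day 40 the median label difference of the same 258 genes was -0.02, and at day 60 it was 0.30.

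Among genes that rose, the label difference at day 21 was graded with the age change. Its median was 0.06 in 3248 genes with an age change of 0 to 1, 0.59 in 878 genes with 1 to 2, and 1.16 in 608 genes with more than that but less than the 6. Genes that fell did not continue this grading, with -0.10 in 11123 genes with an age change of -1 to 0 and 0.08 in 950 genes that fell by more than 1. Both measures use the day 21 arrays, so a low wild-type-labelled array raises the age change and the label difference together. Without wild-type-labelled replicate 3 in the label difference, the median of the 258 steep genes was 1.31 in place of 1.90. The genes were still grouped by an age change that included that array.

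**Figure D3:**
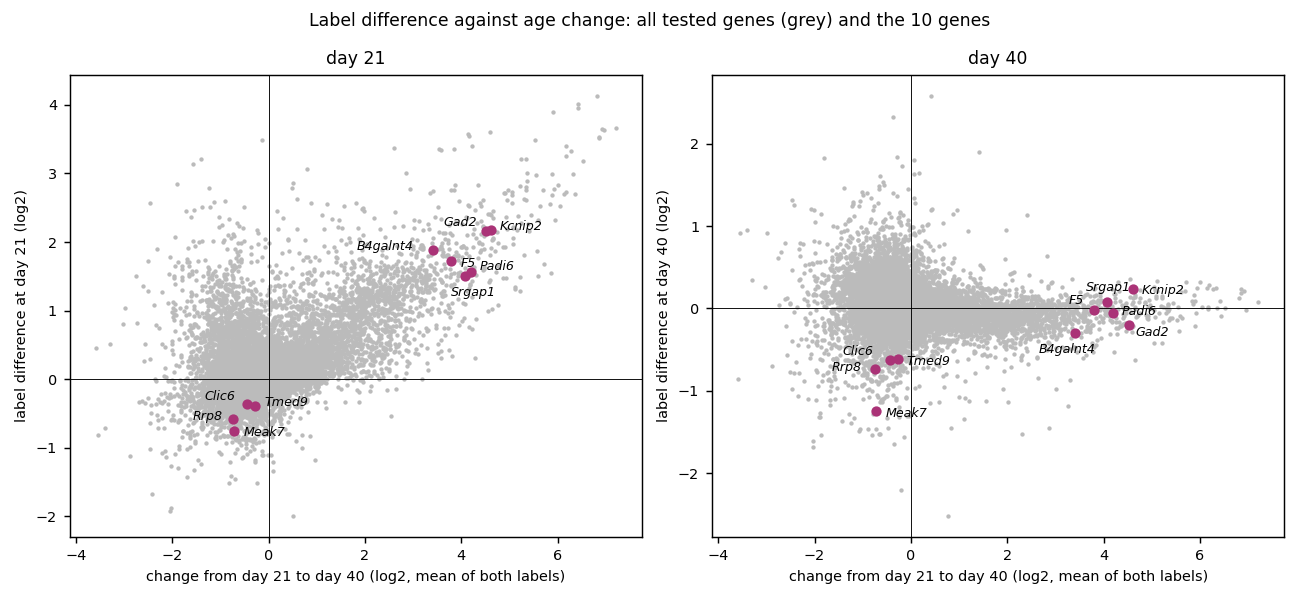
Label difference at day 21 (left) and day 40 (right), both log2, against the change from day 21 to day 40 averaged over both labels (x axis, log2), with 1 grey point per tested gene and the 10 genes marked. At day 21 the 6 rising genes sit in a cloud of steeply rising genes with a median difference of 1.90, whereas at day 40 that cloud lies near 0 and Meak7 lies at -1.25.

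Markers of spermatids moved with the labels at day 21. All 14 measured genes of the elongating spermatid list, which holds protamines and transition proteins, and all 14 of the round spermatid list had a difference above 0. The medians were 1.48 and 1.19, and 4 of the elongating list (Prm1, Prm2, Tnp2 and Fscn3) and 0 of the round list passed limma's test, where 1.47% of all genes were called higher and 0.0117% lower. At an unadjusted p under 0.05 there were 12 and 6. The mean relative log2 signal over the elongating list was 2.06, 2.14 and -0.26 on wild-type-labelled and 3.28, 2.52 and 3.49 on knockout-labelled arrays. Over the round list it was 2.59, 2.20 and -0.03 against 2.74, 2.37 and 2.76. Wild-type-labelled replicate 3 was thus far below the other arrays in both lists, and without it the medians were 0.56 and 0.19.

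Of the rising genes, 5 had signal well above background on that array. Their gap from the mean of the other 2 arrays of the group was smaller. It ran from -0.13 (B4galnt4) to -0.72 (Kcnip2), beside -2.43 and -2.37 for the round and elongating lists. B4galnt4 was lowest on wild-type-labelled replicate 1, at -6.09, beside -5.90 on replicate 3. Gad2 was not well above background on that array and gives no gap. Leaving that array out moved the label differences of the 6 to between 1.28 for Srgap1 and 2.11 for Gad2. The part of spermatid transcripts in the differences was not tested. The pachytene spermatocyte and early meiosis lists had median differences of -0.01 and -0.04 at day 21, with 1 and 0 genes called by limma and 1 and 1 at an unadjusted p under 0.05. The Leydig cell list, which includes genes of testosterone synthesis, had a median of 0.26 with 0 of 12 genes called. The Sertoli cell list had a median of -0.19 with 0 of 15. In that order, 2 and 3 genes had an unadjusted p under 0.05.

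**Figure D4:**
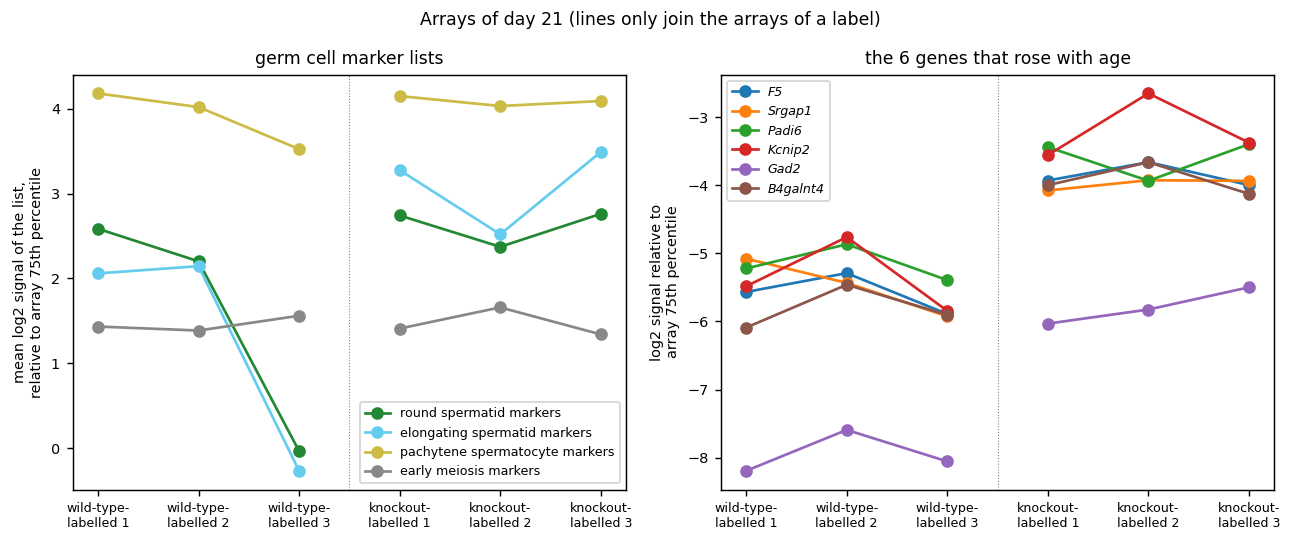
Arrays of day 21 along the x axis, with the mean relative log2 signal of 4 germ cell marker lists on the left and the relative log2 signal of the 6 rising genes on the right. The spermatid lists drop to -0.03 and -0.26 on wild-type-labelled replicate 3, while each of the 6 genes is higher on every knockout-labelled array than on any wild-type-labelled array.

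Profiles over all 18 arrays were compared by the root mean square difference between 2 genes after each was centred on its own mean. These profiles hold the label differences that chose the genes, so nearness among the 6 is partly built in. Nothing is read from how many of them were near one another. Of the 18 nearest genes listed for the rising group, 3 were members of it: Srgap1 (0.21) and Padi6 (0.25) were near to F5, and F5 (0.26) to B4galnt4. Cntnap5c was near to F5 (0.17), Padi6 (0.13) and Srgap1 (0.20). Fhdc1 (0.12) and Otud1 (0.14) were near to Padi6, and Rnf24 (0.18) and Erc2 (0.20) to Srgap1. Kcnip2 was closest to Jag1 (0.20), Srcin1 (0.28) and Neurl1a (0.30), Gad2 to Unc93a (0.26), Gm597 (0.27) and Pax1 (0.30), and B4galnt4 to Jup (0.18) and Cldn13 (0.24). The median difference of all tested genes from these 6 was at most 2.59.

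From day 40 to day 60 the 6 genes had small positive changes, none of which passed the test. F5 changed by 0.54 (limma, adjusted p = 0.0588), Srgap1 by 0.55 (0.0618), Padi6 by 0.45 (0.115), Kcnip2 by 0.58 (0.135), Gad2 by 0.50 (0.151) and B4galnt4 by 0.45 (0.161). Without both day 21 arrays that stood apart, which enter only the estimate of the spread, F5 (0.0183), Srgap1 (0.0149), Padi6 (0.0381), Kcnip2 (0.028) and, of the falling genes, Rrp8 (0.0231) passed. With only the arrays of days 40 and 60 in the fit the same 4 rising genes passed, with adjusted p of 0.0165 to 0.0436, and with slide as a random block all 6 did, with 0.00215 to 0.0275. This comparison shares the day 40 arrays with the earlier one. Over all genes 0.539% were called higher and 0.275% lower. Among called probes, 58.5% were higher, against 86.4% under quantile normalization and 48.1% with the percentile over probes well above background. From day 21 to day 40 the share was 23.3%, and 39.1% under normexp background correction.

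The 4 genes that fell had their clearest label difference at day 40, with all knockout-labelled arrays below. Meak7, a TLDc-domain protein linked to mTOR signalling, read -0.88, -1.36 and -0.89 on wild-type-labelled and -1.30, -2.05 and -2.05 on knockout-labelled arrays at day 21. At day 40 it read -1.45, -1.55 and -1.56 against -2.80, -2.74 and -2.75, the largest difference of the 4 at -1.25 ± 0.20 (SE). The arrays of each label lay close together there. By day 60 the readings were -2.78, -2.14 and -2.46 against -2.12, -2.28 and -2.46, and they overlapped. Meak7 fell by 0.72 ± 0.14 (SE) from day 21 to day 40 (limma, adjusted p = 0.000536). Its difference at day 21 was -0.76 with overlap, and -0.25 against the knockout-labelled array on the shared slide.

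Rrp8 is a nucleolar methyltransferase-like protein involved in ribosomal RNA processing and in silencing of ribosomal RNA genes. It read -1.52, -1.75 and -1.39 on wild-type-labelled and -1.77, -2.18 and -2.45 on knockout-labelled arrays at day 21, just apart. At day 40 it read -2.33, -2.11 and -2.22 against -2.88, -3.02 and -2.99, a difference of -0.74 ± 0.15 (SE). The groups lay well apart at that age. The day 60 readings were -3.17, -2.93 and -2.89 against -3.07, -3.20 and -3.17, with overlap. Rrp8 fell by 0.75 ± 0.10 (SE) from day 21 to day 40 (limma, adjusted p = 3.01e-05). The change to day 60 was -0.48 (adjusted p = 0.0523), and it changed sign under normexp background correction. At day 21 the label difference was -0.58 over all arrays and -0.22 within the shared slide.

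Tmed9 is a p24 cargo receptor of the traffic between endoplasmic reticulum and Golgi, and the only one of the 10 with a probe above the 75th percentile on every array. It read 3.42, 3.03 and 3.44 on wild-type-labelled and 3.14, 2.74 and 2.84 on knockout-labelled arrays at day 21, with overlap. At day 40 it read 3.08, 3.24 and 3.08 against 2.47, 2.53 and 2.55, a difference of -0.62 ± 0.12 (SE). The groups lay well apart, with little spread within each. At day 60 the readings were 2.54, 2.40 and 2.48 against 2.39, 2.34 and 2.29, a difference of -0.13. Averaged over both labels, Tmed9 fell by 0.28 from day 21 to day 40 (limma, adjusted p = 0.00895), close to the median gene. It fell by 0.42 ± 0.08 (SE) from day 40 to day 60 (limma, adjusted p = 0.0413). That later change was -0.66 on wild-type-labelled and -0.18 on knockout-labelled arrays, given by label with no test. The later call was lost without any single array of day 40 or day 60 except wild-type-labelled replicate 1 of day 40, with adjusted p up to 0.133.

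Clic6 belongs to the chloride intracellular channel family and was the one gene of the 10 whose labels were apart at all 3 ages but not in the same direction. Its brighter probe read -1.87, -1.46 and -1.77 on wild-type-labelled and -2.00, -2.23 and -1.95 on knockout-labelled arrays at day 21, a narrow gap. At day 40 it read -2.05, -2.04 and -1.94 against -2.48, -2.50 and -2.93. The knockout-labelled arrays were lower at both ages. At day 60 the readings were -1.96, -1.69 and -1.46 against -1.44, -0.99 and -1.36, with the knockout-labelled arrays higher and the nearest pair almost level. Averaged over both labels, Clic6 fell by 0.44 ± 0.12 (SE) from day 21 to day 40 (limma, adjusted p = 0.004). It rose by 0.84 ± 0.12 from day 40 to day 60 (limma, adjusted p = 0.0164). That later change was 0.31 on wild-type-labelled and 1.38 on knockout-labelled arrays, given by label with no test. The rise was not called without wild-type-labelled replicate 2 of day 40 (adjusted p = 0.0585), knockout-labelled replicate 1 of day 40 (0.0567) or knockout-labelled replicate 3 of day 60 (0.0516).

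At day 40 the label differences within the shared slide, which held 1 wild-type-labelled array, were -1.21 for Meak7, -0.74 for Rrp8, -0.57 for Tmed9 and -0.70 for Clic6. They were close to those over all arrays, the last being -0.63. Over all genes at day 40, 7.97% had all knockout-labelled arrays below and 13.3% had them all above. In either direction limma's test called 1 gene at day 40, or 0.00586%, and this was Plin1. It also called 1 gene at day 60, or 0.00586%, again Plin1. At day 40 the elongating list had means of 5.57 to 5.94 on wild-type-labelled and 5.72 to 5.95 on knockout-labelled arrays. Its median label difference was 0.03 (9 of 14 genes above 0), and that of the round list was -0.08 (4 of 14). Some other marker lists had larger median differences at that age. The interferon response list had a median label difference of -0.53 with 0 of 12 genes above 0, and wild-type-labelled replicate 3, the array of the shared slide, stood apart in it with a mean of -2.10 beside -3.73 and -3.84 on the other wild-type-labelled and -3.86 to -3.61 on the knockout-labelled arrays. Without that array the median of the list was 0.08, and the differences of the 4 genes were -1.27 (Meak7), -0.74 (Rrp8), -0.64 (Tmed9) and -0.59 (Clic6). The Sertoli list had a median of 0.21 (13 of 15 genes above 0), the peritubular list 0.24 (7 of 9), the macrophage list 0.15 (12 of 12) and the red blood cell list 0.48 (4 of 6). In these 5 lists limma's test called 0 genes at day 40. At an unadjusted p under 0.05 there were 5 of the Sertoli, 3 of the peritubular, 1 of the interferon, 0 of the macrophage and 0 of the red blood cell list. The part of these cell types in the differences was not tested.

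The falling genes lay below most other genes of like age change. Besides them, 6996 genes had an age change between -0.75 and -0.28 from day 21 to day 40, the range of the 4. Their median label difference at day 40 was 0.07, with quartiles of -0.05 and 0.20, and 72 of them (1.03%) were as low as Tmed9 or lower. All knockout-labelled arrays lay below in 687 of them, or 9.84%. These 4 genes were picked for the difference, so the comparison describes where they lie and tests nothing.

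By profile, Meak7 was nearest to Snapin (0.17), 4933439C10Rik (0.18) and Rrp36 (0.20), Rrp8 to St3gal4 (0.20), Cnih4 (0.20) and Dffb (0.21), and Tmed9 to Kdm4a (0.12), Tasor (0.14) and Tmtc2 (0.14). The nearest genes to Clic6 were Myl1 (0.29), Syt13 (0.30) and Slc10a6 (0.31). For these 4 genes the median over all tested genes was between 0.42 and 0.62. Their SD over the arrays was 0.39 to 0.64, beside 1.89 to 2.49 for the rising group. The root mean square difference grows with a gene's own spread, so nearness is not compared between the groups.

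Second probes did not repeat the pattern of the brighter ones in all cases. The dimmer Srgap1 probe lay between -6.77 and -5.71 on 17 arrays, at -4.33 on knockout-labelled replicate 2 of day 21, and changed by -0.22 from day 21 to day 40 (limma, adjusted p = 0.554), whereas the brighter probe rose by 4.08. Its labels overlapped at every age. The dimmer Gad2 probe changed by 0.95 over that interval (adjusted p = 0.0862). It read -8.54, -8.10 and -7.96 on wild-type-labelled arrays at day 21, of which replicate 3 was well above background, and -6.94, -3.49 and -6.60 on knockout-labelled arrays. The labels were thus apart in the same direction as on the brighter probe, with knockout-labelled replicate 2 far above the others.

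The dimmer Clic6 probe overlapped at every age, with label differences of 0.27, -0.12 and 0.27, and it lay between -5.20 and -3.79. It fell by 0.51 from day 21 to day 40 (limma, adjusted p = 0.0209) and changed by 0.42 from day 40 to day 60 (adjusted p = 0.239). With the mean of both probes, the Clic6 label difference was -0.04 at day 21 and -0.37 at day 40. All 3 dimmer probes had their highest day 21 value on knockout-labelled replicate 2, an array on which the epididymis list also had its highest mean (-3.56).

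**Figure D5:**
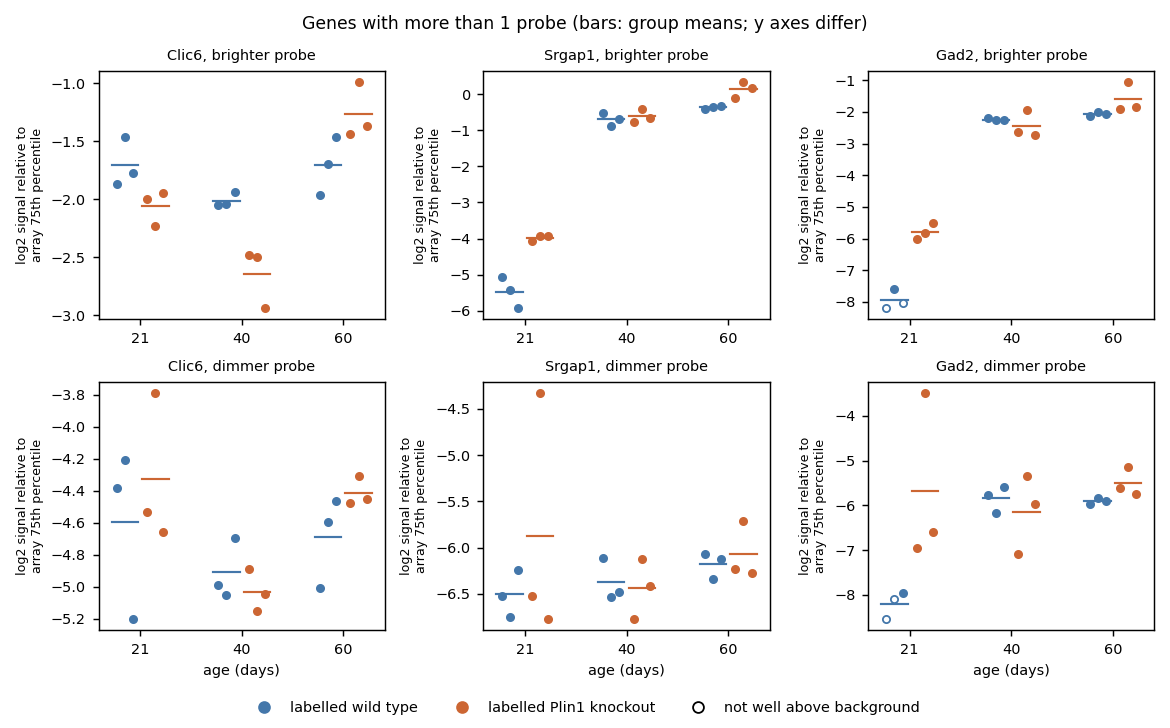
Relative log2 signal (y axis, a separate scale in each panel) against age in days for the brighter and dimmer probes of Clic6, Srgap1 and Gad2, with 1 point per array, bars at group means and open points for arrays not well above background. The brighter Srgap1 probe rises by 4.08 between days 21 and 40 while the dimmer probe stays between -6.77 and -5.71 on all arrays but 1.

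The pathways around the 10 genes held 100 other measured genes. From day 21 to day 40, 16 of them rose and 62 fell by limma's test, beside 19.6% and 52.6% of all genes, and their median change was -0.37. From day 40 to day 60 none rose and 1, Thbd (-0.77, adjusted p = 0.049), fell, with 24 at an unadjusted p under 0.05. By label, 1 was higher at day 21 and none passed at day 40 or day 60 in limma's test over all probes; at an unadjusted p under 0.05 there were 18, 7 and 2. These are close to or below the shares over all genes, of which 1.47% were called higher at day 21 and 17.8%, 9.25% and 6.72% had such an unadjusted p at the 3 ages. The called gene was Dpp10 (0.83, adjusted p = 0.0367), a transmembrane partner of Kv4 channels.

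Families of the rising genes were mixed in their age change. Among 17 other coagulation genes, 4 rose and 10 fell, with a median of -0.35: Proc, which encodes the anticoagulant protein C, rose by 3.66 (limma, adjusted p = 4.95e-09) and F10 by 1.36, whereas F3, tissue factor, fell by 0.65. Of 8 other Slit-Robo genes, 1 rose and 7 fell; Srgap2 and Srgap3 fell by 0.28 and 0.27, Robo4 by 1.07 and Slit2 by 0.78, and Robo3 rose by 0.58. Padi1, Padi2, Padi3 and Padi4 all fell, by 0.28 to 0.88, and among the oocyte complex genes Nlrp5 rose by 2.10. In all, 2 of 10 genes of that list rose and 6 fell.

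Of 8 other Kv4 complex genes, 3 rose and 2 fell. The auxiliary subunit genes Dpp10 and Dpp6 rose by 2.73 and 1.98, Kcnip1 rose by 0.60, and Kcnip3 fell by 0.36, while Kcnip4 changed by -0.15 without passing. Around Gad2, 1 of 10 GABA genes rose (Gabbr2, a GABA-B receptor subunit, by 0.59) and 4 fell, among them the transporters Slc6a13 by 0.67 and Slc32a1 by 0.55. Gad1, the other glutamate decarboxylase, changed by -0.23 (adjusted p = 0.324). Next to B4galnt4, B4galnt3 rose by 2.39 (limma, adjusted p = 8.7e-06), B4galnt1 fell by 0.25, B4galnt2 changed by 0.07 without passing, and the sulfotransferase gene Chst8 fell by 1.41. At day 21 the label difference of B4galnt3 was 1.58 (adjusted p = 0.0799) and that of Proc 1.22 (0.0546), neither of which passed.

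Families of the falling genes are read against the 52.6% of all genes that fell. Of 12 other genes of ribosomal RNA transcription, 11 fell, with a median of -0.51: Ubtf, a factor of RNA polymerase I, fell by 0.74 and Fbl, the fibrillarin methyltransferase, by 0.56 (limma, adjusted p = 6.55e-06). Among 17 p24 and coat protein genes, nearer to that share, 12 fell and 2 rose; Tmed10 fell by 0.50, Tmed2 by 0.48 and Arcn1 by 0.76, while Sec23a, of the COPII coat, rose by 3.30 (adjusted p = 1.22e-10). Tmed3 rose by 0.19, and Tmed1 and Tmed6 did not pass. Of the 4 other Clic genes, Clic4 and Clic1 fell by 0.45 and 0.41, and Clic3 and Clic5 did not pass. Of 9 TLDc and mTOR genes, 2 rose and 6 fell: Oxr1, also a TLDc protein, rose by 1.37 and Ncoa7 fell by 0.68. By label at day 40, when the 4 genes were lower on the knockout-labelled arrays, the median difference was -0.11 over the ribosomal RNA list, -0.0044 over the p24 and coat list, 0.03 over the TLDc and mTOR list and 0.09 over the Clic family, beside 0.04 over all genes. No gene of these 4 lists passed limma's test there, and 1 of each had an unadjusted p under 0.05.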

How the data were processed

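Total RNA was amplified, labelled with Cy3 and hybridised to Agilent arrays, per the labels' protocols. The deposited intensity is Feature Extraction's processed signal, background-subtracted and detrended by the authors; its version was 10.7.3.1 per the file headers and 9.1 per the submitters' processing notes. The annotation build is mm9, per the file headers.

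Control spots and outlier spots were dropped, spots of a probe averaged on the log2 scale, and the array's 75th percentile over probes subtracted. A probe was tested if well above background (at least 0.5 of its spots) on all 3 arrays of a group, which left 35639 probes. Probes were named through their accession in a RefSeq table of assembly GRCm38.p6, and the brightest probe stood for a gene. Labels and ages were compared with limma 3.58.1 (R 4.3.3) on 6 group means over 18 arrays, two-sided, adjusted over all probes; the fit was tested on simulated data. Standard errors are those of the fit.

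The 10 genes, their gene lists and the marker lists were chosen with earlier results of these data known. Named genes were the 10, all probes of each, Plin1, family members with the same symbol root, up to 3 genes of a list with the smallest p, and the 3 nearest profiles. The marker lists covered spermatogonia, early meiosis, pachytene spermatocytes, round and elongating spermatids, Sertoli, Leydig, peritubular, macrophage, endothelial, adipocyte, epididymis and red blood cells and interferon response. Lists not described in the report had these median label differences at day 21, with no gene called except Hemgn of the red blood cell list and Plin1 of the adipocyte list: spermatogonia -0.17, peritubular -0.10, macrophage -0.02, endothelial 0.02, adipocyte -0.79, epididymis 0.28, red blood cell -0.19 and interferon -0.12. The files held no mean signal, so normexp (offset 50), planned on it, used the median signal and the median background. Alternatives were quantile normalization, another percentile, filters, kept outlier spots, slide and replicate blocks, array weights, the mean of a gene's probes, fewer ages, and leaving out arrays. Same-numbered arrays of an age correlated at -0.14 to 0.18, with 2 of 9 over 0.1, so the numbers were not taken as pairs.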

Additional observations from a re-analysis of the deposited data

Results flagged for a closer look

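Clic6 drew attention because the label difference of its brighter probe changed direction between ages on every array. The knockout-labelled arrays were all lower at day 21 (-0.36) and at day 40 (-0.63), and all higher at day 60 (0.44), on the log2 scale. The difference between the ages was not tested, since the label differences chose the gene. The direction at each age was kept under 32 alternative settings. Those that leave out an array of another age or change the probe filter could not alter it. At day 21 the lowest value was -0.47 and the highest -0.04, the latter with the mean of both probes. On the dimmer probe the labels overlapped at every age, with differences of 0.27, -0.12 and 0.27. At day 60 the nearest arrays of the brighter probe were at -1.46 and -1.44. Over all genes, all knockout-labelled arrays lay below in 10.5% at day 21 and 7.97% at day 40, and above in 10.6% at day 60.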

How the results depend on the processing

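From day 21 to day 40, 25633 probes were called, and 9263 under normexp background correction; leaving out 1 array gave 24113 to 26910 and the replicate block 25283. With slide as a fixed block this interval could not be estimated. From day 40 to day 60, 253 probes were called. The count was 0 under normexp, 103 under quantile normalization, 117 with no filter, 386 with probes well above background on all 18 arrays, 0 with slide as a fixed block, 7450 with slide as a random block (its estimated correlation was below 0, at -0.23), 5384 with array weights, 58 with the replicate block and 3196 with only the arrays of these ages. It was 2836 without both day 21 arrays that stood apart, a setting chosen after seeing the data. Leaving out 1 array gave 0 (of day 40 the wild-type-labelled replicate 2 or the knockout-labelled replicate 1, of day 60 the knockout-labelled replicate 3) to 1318 (wild-type-labelled replicate 3 of day 21). At an unadjusted p under 0.05 the test gave 6420 probes. Calls in this interval, those of Clic6 and Tmed9 included, therefore depend on the setting: their adjusted p ranged from 0.000188 to 0.996 and from 0.00106 to 1. The changes of Rrp8 and Meak7 over it were 0.46 and 0.37 under normexp, opposite in sign to the values reported, as the median gene moved to 0.18 from -0.02; minus that median they were 0.28 and 0.19. Normexp also moved the median gene's label difference to 0.11 at day 21 and to -0.08 at day 40. The 6 rises from day 21 to day 40 passed under every setting that gave a value, with adjusted p up to 0.00204 (Gad2, normexp). Of the label differences under the alternatives, 33 moved by more than the spread and 903 did not. The 903 include settings that cannot move a label difference, such as leaving out an array of another age or another probe filter. That count therefore does not measure stability. Signs changed for F5, Srgap1, Padi6 and Gad2 at day 40 and Rrp8 at day 60. The cause of these shifts was not tested. Dim signals limit Gad2 at day 21, where 1 of 3 wild-type-labelled arrays was well above background.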
